A study of Homo sapiens with 5 samples.

Results

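The genes described here encode the subunits and activators of the proteasome. They were taken from the array annotation as every gene whose symbol begins with PSMA, PSMB, PSMC, PSMD or PSME followed by a number, and each gene is read from the brightest, by mean, of the probe sets that name it alone. The rule found 40 of 12165 measured genes. Of these, 38 encode subunits, assembly chaperones or activators, while PSMC3IP and PSME3IP1 are named for proteins they bind and are no subunits themselves. PSMA8, PSMB11, PSMC5, PSMD7 and PSMD13 were not analysed here.

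The proteasome is the large protease of the cytosol and nucleus that degrades proteins tagged with ubiquitin. Its core particle is a barrel of alpha and beta rings, with the cutting sites inside on the beta rings, and the regulatory particle on its ends recognises, unfolds and feeds in the substrate. Cells whose proteasome is blocked are known to raise the genes of many subunits together through the transcription factor NFE2L1, and interferon is known to raise the immunoproteasome beta subunits and the activators PSME1 and PSME2. Celastrol, a plant triterpenoid, has been reported as an inhibitor of the proteasome and as an inducer of the heat shock response.

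LNCaP cells, a human prostate cancer cell line that responds to androgen, were grown in serum-containing medium and kept for 6 h with 1.25 µM celastrol (2 arrays) or with its solvent DMSO (3 arrays). The arrays of each group are called biological replicates in the labels, which do not say whether they came from separate cultures, so every p-value measures the spread between these arrays. Levels are log2(intensity + 1) of the deposited intensities, and a change is the celastrol mean less the DMSO mean of these log2 values, so the change of a dim gene is understated. Precision is limited by how few arrays there are.

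The array labelled DMSO replicate 3 stood apart and is shown separately. Its Pearson correlation with each other array over all probe sets lay between 0.843 and 0.844, against 0.994 to 0.998 among the other 4. Of 9 measured luminal prostate markers, 8 lay over 2-fold below the mean of DMSO replicates 1 and 2, with a list median of 4.43 against 9.67 to 9.77 on the other 4 arrays. Of 13 leukocyte markers, 11 were over 2-fold higher, with a median of 10.91 against 4.38 to 4.47. The other 4 arrays are called the LNCaP arrays below, and the comparison of celastrol with DMSO rests on them. On these arrays the prostate markers KLK3 (10.07 to 10.89) and FOLH1 (12.73 to 12.85) were present. The leukocyte marker PTPRC stood near the floor, at 4.15 to 4.40. Not every marker followed: the leukocyte marker LCP1 stood at 9.24 to 9.41. The luminal markers TRPM8, at 4.41 to 4.94, and KLK2, at 5.56 to 6.29, were dim.

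The messenger RNA of proteasome genes lay close to its DMSO level after 6 h of celastrol. No member passed the test (limma, Benjamini-Hochberg adjusted p under 0.05), and the smallest adjusted p among the 40 was 0.147. The background was as low: the same test called 0.0164% of all genes, 2 of 12165, so a count of 0 members says little by itself. Before adjustment, 5 of 40 members, 12.5%, had a limma p under 0.05, against 15% of all genes. These 5 were PSMD10, PSMD4, PSMD12, PSME2 and PSME3. Without the 40% of probe sets of lowest mean, a dim filter on the mean of all 5 arrays that all 40 members passed, PSMB9 through its level on DMSO replicate 3, the test called 1.06% of genes and again 0 members, with a smallest adjusted p of 0.119.

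The member changes ran from -0.20 for PSMB9 to 0.32 for PSME4, with a median of 0.02 against a median of 0.00 over all genes. PSMB9 lay near the floor and came to -0.10 with log2(value + 16), where PSME3 was lowest at -0.17, and leaving out 1 array put PSMB9 anywhere between -0.31 and -0.08. Changes above 0 were found in 23 of 40 members, 57.5%, and in 48.2% of all genes. Their median absolute change was 0.06, against 0.07 over all genes. A change beyond 1.5-fold, 0.58 on the log2 scale, was found in 0 of 40 members and in 1.78% of all genes. The 95% limma interval lay wholly within 1.5-fold either way for 39 of 40 members, 97.5%, against 88.4% of all genes and 85.9% of those kept by the dim filter. The exception was PSME4. With DMSO replicate 3 added to the fit the count dropped to 17, or 42.5% of members, below the 54.2% of all genes. With 1 of the 4 arrays left out it was 29 to 33, or 72.5% to 82.5%, against 64.0% to 64.7% of all genes. For scale, HMOX1, the inducible heme oxygenase, stood at 11.94 and 12.24 with celastrol against 5.98 and 6.33 with DMSO. The cochaperone gene DNAJB1 stood at 11.25 and 11.23 against 9.02 and 9.04. Of these, DNAJB1 passed the test (limma adjusted p = 0.0421) and HMOX1 did not (limma adjusted p = 0.0622).

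**Figure D1:**
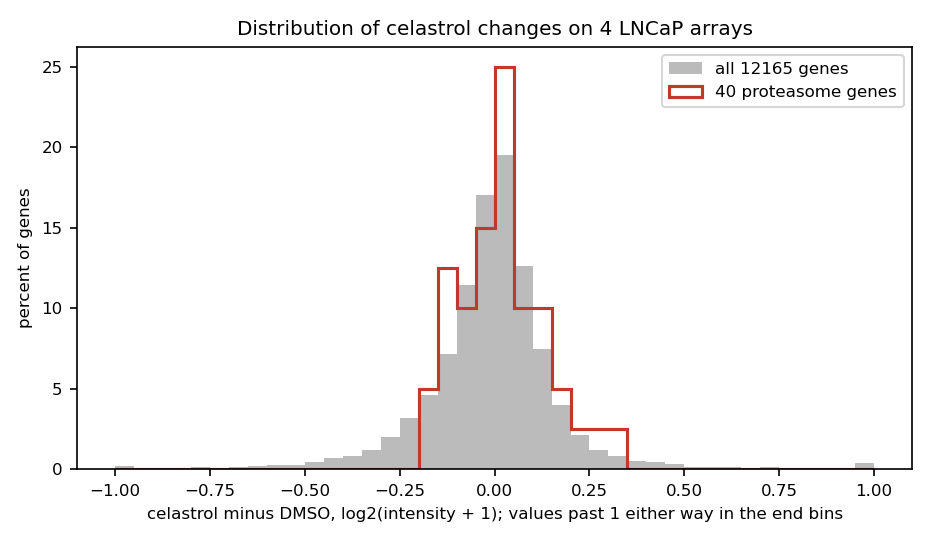
Percent of genes (vertical axis) by celastrol minus DMSO change in log2(intensity + 1) (horizontal axis) on the 4 LNCaP arrays, for all 12165 genes (grey) and the 40 proteasome genes (red line). The changes of the 40 genes run from -0.20 to 0.32, while changes of all genes past 1 either way are gathered in the end bins.

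The groups did not overlap, ties counting as overlap, for 19 of 40 members, 47.5%, against 34.4% of all genes and 42.8% of those kept by the dim filter. In 12 members the celastrol arrays lay above both DMSO arrays (15.1% of all genes did) and in 7 below (19.4% of all genes). The higher side held 63.2% of these members as deposited, against 43.7% over all non-overlapping genes. With each array centred on its median the counts became 17 and 5 (40% and 16.8% of all genes) and the share 77.3%, but the share over all genes rose too, to 70.5%. Without celastrol replicate 1, 13 members were higher and 16 lower (26.8% and 32.2% of all genes). With any 1 array left out, the higher share ran from 44.8% to 71.9% for members and from 45.4% to 48.9% over all genes. The split by role was uneven in the counts as deposited. Of the 12 higher members, 9 were among the 17 genes of the regulatory particle and its assembly. Of the 7 lower members, 3 were activators. No test was made of that split.

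**Figure D2:**
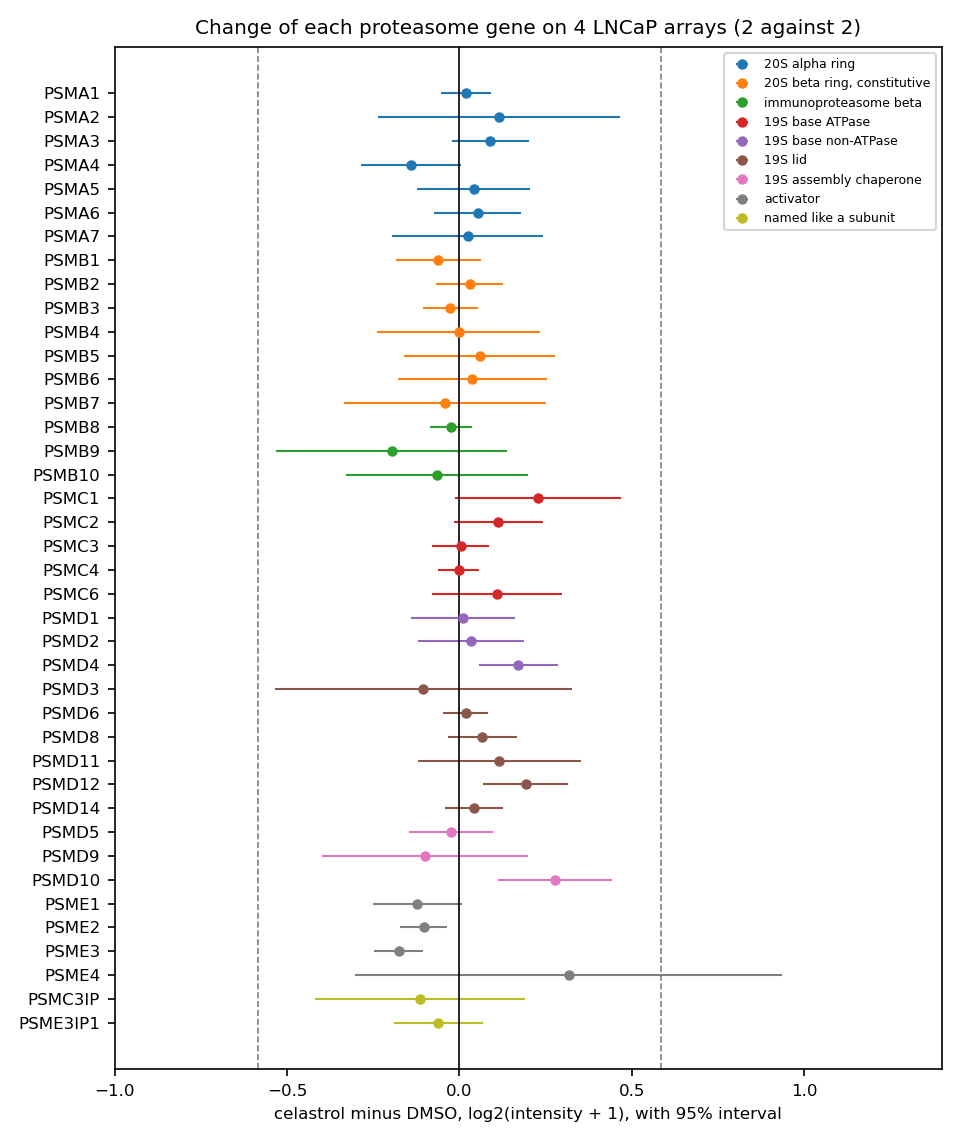
Celastrol minus DMSO change in log2(intensity + 1) (horizontal axis) of each of the 40 genes on the 4 LNCaP arrays, 2 against 2, coloured by role, with points for the limma change, bars for its 95% interval and dashed lines at 1.5-fold either way. The interval of PSME4 alone crosses a dashed line.

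The alpha ring forms the ends of the core barrel and its gate. Of its 7 measured genes, 6 had a change above 0, with a median of 0.04 and a range from -0.14 to 0.12. Without DMSO replicate 1 the median turned to -0.01 with 3 of 7 above 0, without DMSO replicate 2 it was 0.10, and with all 5 arrays it was -0.03 with 2 of 7 above 0. PSMA4 stood at 10.06 and 9.96 with celastrol and at 10.17 and 10.13 with DMSO, a change of -0.14 (SE 0.0453, limma adjusted p = 0.393). It was the one alpha gene with both celastrol arrays below both DMSO arrays. PSMA3 was at 10.37 and 10.31 against 10.23 and 10.26, a change of 0.09 (SE 0.0349) with no overlap. PSMA1 stood at 0.02, also with no overlap, and the arrays overlapped for PSMA2 at 0.12, PSMA5 at 0.04, PSMA6 at 0.05 and PSMA7 at 0.02. The brighter probe set that PSMA2 shares with PVRIG had a change of 0.02.

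Beta subunits carry the cutting sites. PSMB5 holds the chymotrypsin-like site, PSMB6 the caspase-like site and PSMB7 the trypsin-like site. PSMB5 stood at 10.14 and 9.98 with celastrol against 10.00 and 9.99 with DMSO, with the DMSO arrays between the celastrol arrays. PSMB6 stood at 10.01 and 9.87 against 9.93 and 9.87. PSMB7 stood at 10.85 and 10.66 against 10.75 and 10.85. The groups thus overlapped for all 3 catalytic genes, and their changes of 0.06, 0.04 and -0.04 had 95% intervals from -0.16 to 0.28, from -0.18 to 0.25 and from -0.34 to 0.25. The sign of each of these 3 turned when 1 of the 4 arrays was left out.

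The non-catalytic beta genes were as close. PSMB1 was at 10.86 and 10.79 with celastrol and at 10.86 and 10.91 with DMSO, a change of -0.06 (SE 0.0386), narrowly without overlap. Its dimmer probe set gave -0.21. The probe set that PSMB1 shares with XAGE3 lay the other way, also without overlap. That probe set was at 10.78 and 10.72 against 10.68 and 10.71, a change of 0.05. PSMB2 stood at 0.03, PSMB3 at -0.03 and PSMB4 at 0.00 with SE 0.0737. Over the 7 constitutive beta genes the median change was 0.00, and 3 were above 0. The median turned from -0.002 to 0.02 with each array centred on its median, and leaving out any 1 of the arrays put it between -0.03 and 0.03.

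The immunoproteasome beta subunits replace the catalytic ones in a form of the core found mainly in immune cells and after interferon, PSMB8 for PSMB5, PSMB9 for PSMB6 and PSMB10 for PSMB7. PSMB8 was near the floor on all LNCaP arrays, at 4.57 and 4.58 with celastrol and 4.60 and 4.60 with DMSO. PSMB9 stood near the floor too, at 4.13 and 3.90 against 4.27 and 4.16. PSMB10 stood at 6.82 and 6.62 against 6.80 and 6.77, and its groups overlapped. The changes were -0.03, -0.20 and -0.07, with 95% intervals from -0.09 to 0.04, from -0.53 to 0.14 and from -0.33 to 0.20. At levels this near the floor a fall of PSMB8 or PSMB9 could not have been measured in full.

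The base of the regulatory particle holds a ring of ATPases that unfolds substrates. Of the 5 measured ATPase genes, 4 had a change above 0 and 3 had celastrol arrays above both DMSO arrays (15.1% of all genes did). With each array centred on its median, 4 lay above (40% of all genes). The class median change was 0.11 as deposited, 0.07 without celastrol replicate 1 and 0.04 without celastrol replicate 2. PSMC1 stood at 10.66 and 10.82 with celastrol and 10.47 and 10.55 with DMSO, a change of 0.23 (SE 0.075, limma adjusted p = 0.406). PSMC2 stood at 10.64 and 10.55 against 10.48 and 10.48, a change of 0.11 (SE 0.0401). Its dimmer probe set gave 0.17, with overlapping arrays. PSMC6 was at 0.11, and PSMC3 and PSMC4 were both at 0.00 to 2 decimals, with SE 0.0254 and 0.0183.

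In the rest of the base, PSMD1 and PSMD2 are scaffold subunits and PSMD4 is a ubiquitin receptor. PSMD4 stood at 10.41 and 10.44 with celastrol and at 10.22 and 10.29 with DMSO, a change of 0.17 (SE 0.036, limma adjusted p = 0.245). Its other probe sets had changes of 0.15, 0.18 and 0.10, so all 4 lay on the higher side, and on the first 2 of these others the groups did not overlap either. PSMD1 and PSMD2 were at 0.01 and 0.03, with overlapping arrays.

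The lid removes ubiquitin chains, through its deubiquitinase PSMD14. Of its 6 measured genes, 5 had a change above 0. In 4 the celastrol arrays lay above both DMSO arrays (15.1% of all genes did). With each array centred on its median, 5 lay above (40% of all genes). The class median change was 0.05 as deposited and 0.03 without DMSO replicate 1. PSMD12, a scaffold subunit, stood at 9.74 and 9.71 with celastrol and 9.49 and 9.57 with DMSO, a change of 0.19 (SE 0.0381, limma adjusted p = 0.226). Its dimmer probe set had a change of 0.03 (SE 0.175) with overlap. PSMD8 stood at 10.19 and 10.24 against 10.13 and 10.16, a change of 0.07 (SE 0.0314). PSMD14 was at 0.04, PSMD6 at 0.02, PSMD11 at 0.12 and PSMD3 at -0.10. PSMD3 had the widest spread in the lid, with SE 0.134.

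Among the chaperones that help assemble the base, PSMD10, also known as gankyrin, had the largest change of all genes of the regulatory particle and its assembly. It stood at 9.80 and 9.77 with celastrol and at 9.45 and 9.56 with DMSO. The change of 0.28, or 1.21-fold, had a 95% interval from 0.11 to 0.44 (SE 0.0511, limma adjusted p = 0.208). It stayed between 0.22 and 0.33 with any 1 of the 4 arrays left out. PSMD5 and PSMD9 were at -0.02 and -0.10, with overlapping arrays.

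Activators bind the ends of the core in place of the regulatory particle. PSME1 and PSME2 form a ring induced by interferon, PSME3 forms a related ring found in the nucleus, and PSME4 is a large single-chain activator. PSME3 stood at 9.77 and 9.77 with celastrol and at 9.93 and 9.96 with DMSO, the member with the smallest p, with a change of -0.18 (SE 0.0222, limma adjusted p = 0.147). Its other probe sets were closer to 0, at -0.03, -0.02 and 0.03, the first and last with overlapping arrays. With the mean of all its probe sets PSME3 came to -0.05 (limma adjusted p = 0.567). PSME2 stood at 10.42 and 10.41 against 10.53 and 10.51, a change of -0.10 (SE 0.0214, limma adjusted p = 0.237). PSME1 stood at 10.36 and 10.32 against 10.42 and 10.50, a change of -0.12 (SE 0.0402, limma adjusted p = 0.406). On the brightest probe sets all 3 ring-forming activators thus had celastrol arrays below both DMSO arrays, as 19.4% of all genes did. Their signs held under quantile normalization, median centring and the larger pseudocount.

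PSME4 pointed the other way but was the least certain member. It stood at 8.38 and 7.94 with celastrol and at 7.76 and 7.92 with DMSO, so 1 celastrol array carried most of the change of 0.32 (SE 0.193, 95% interval from -0.30 to 0.94). Without celastrol replicate 1 the change was 0.10. Its other probe sets gave 0.30 and -0.18. The genes that are no subunits, PSMC3IP and PSME3IP1, had changes of -0.11 and -0.06 with overlapping arrays.

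**Figure D3:**
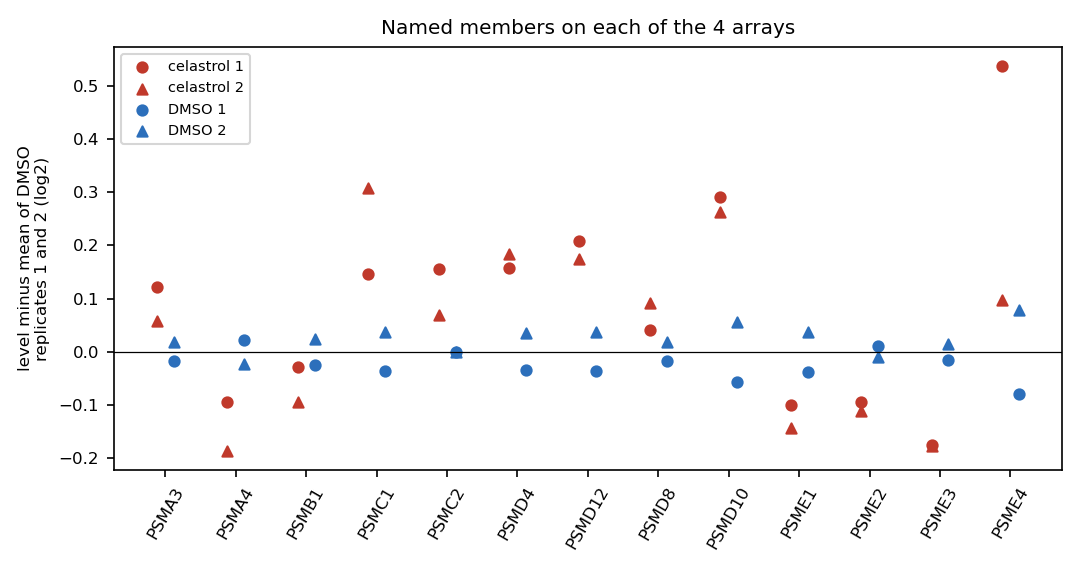
Level of 13 members on each of the 4 LNCaP arrays, as log2(intensity + 1) minus the mean of DMSO replicates 1 and 2 (vertical axis), with red for celastrol, blue for DMSO, circles for replicate 1 and triangles for replicate 2. PSMD10 lies highest with both celastrol arrays together, PSME1, PSME2 and PSME3 lie below 0, and the celastrol arrays of PSME4 lie far apart.

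Other genes of the pathway, outside the symbol rule, were taken from fixed lists. Of the 25 measured, 0 passed the limma test, against 0.0164% of all genes. Those whose limma p lay below 0.05 before adjustment were ZFAND5, UBB and UBQLN2. These 3 of 25 were no larger a share than the 15% over all genes. Among 7 genes listed as assembly factors, inhibitors and adaptors, the largest change was 0.11, that of PAAF1. Among 6 further regulatory subunits and bound enzymes it was 0.23, that of the ubiquitin receptor ADRM1 (limma adjusted p = 0.515). In the list of ubiquitin shuttles and zinc finger adaptors, ZFAND5, a zinc finger protein that binds the proteasome, stood at 10.47 and 10.34 with celastrol and 9.90 and 9.91 with DMSO, a change of 0.50 (SE 0.056, limma adjusted p = 0.137). The polyubiquitin gene UBB stood at 13.33 and 13.32 against 13.06 and 13.03, a change of 0.28 (SE 0.0219, limma adjusted p = 0.0981). NFE2L1 itself stood at 0.02 and the 5 genes of its list lay between -0.02 and 0.10, the highest being NGLY1, which removes its sugar chains. UBQLN2, a ubiquitin shuttle of the same list as ZFAND5, lay the other way at 8.97 and 8.97 against 9.16 and 9.11, a change of -0.17 (SE 0.0287, limma adjusted p = 0.190). The change of ZFAND5 was larger than that of any member, without passing the test.

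On DMSO replicate 3 the immunoproteasome genes were high and their constitutive counterparts were low, while other core genes lay on either side. It is 1 array, so these values have no test, and in bulk RNA a different share of a cell type and a different RNA level per cell cannot be told apart. PSMB8 stood at 10.18 on it, against 4.60 and 4.60 on DMSO replicates 1 and 2, which is 48.0-fold on this scale and 30.1-fold with log2(value + 16). PSMB9 stood at 10.04 against 4.27 and 4.16, which is 56.7-fold and 31.8-fold on these scales. Both ratios rest on levels near the floor, so their size and their order are not settled. PSMB10 stood at 9.28, 5.64-fold above the mean of the other DMSO arrays. Of the activators, PSME2 stood at 12.03 (2.86-fold above) and PSME1 at 11.01 (1.46-fold above). PSME3 at 9.90 and PSME4 at 8.08 lay within 0.24 of the mean of the other DMSO arrays. The remaining PSME4 probe sets differed from that mean by 0 and -0.83, and the remaining PSME3 probe sets by 0.03 to 0.29.

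The constitutive catalytic genes lay the other way. PSMB5 stood at 8.96 on that array, 0.486 times the level of the other DMSO arrays, PSMB6 at 9.50 (0.757 times) and PSMB7 at 10.27 (0.692 times). Each was below all 4 LNCaP arrays. This was not particular to the catalytic genes, as PSMA1 lay 0.659 times, PSMB4 0.728 times and PSMB1 0.751 times as high there as on the other DMSO arrays. Nor was it general to the core. On that array 5 of 7 alpha genes and 2 of 7 constitutive beta genes lay higher, among them PSMB2 (1.75-fold) and PSMA2 (1.56-fold). In all, 4 of 40 members were over 2-fold higher on it, where 8.65% of all genes were, and 1 of 40 was over 2-fold lower, where 12% were. PSMB5 lay just past 2-fold at -1.04 and PSMB2 just inside it at 0.81. The 5 ATPase genes lay at -0.54 to -0.14 there, but PSMC4 came to 0.007 under quantile normalization of the 5 arrays.

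**Figure D4:**
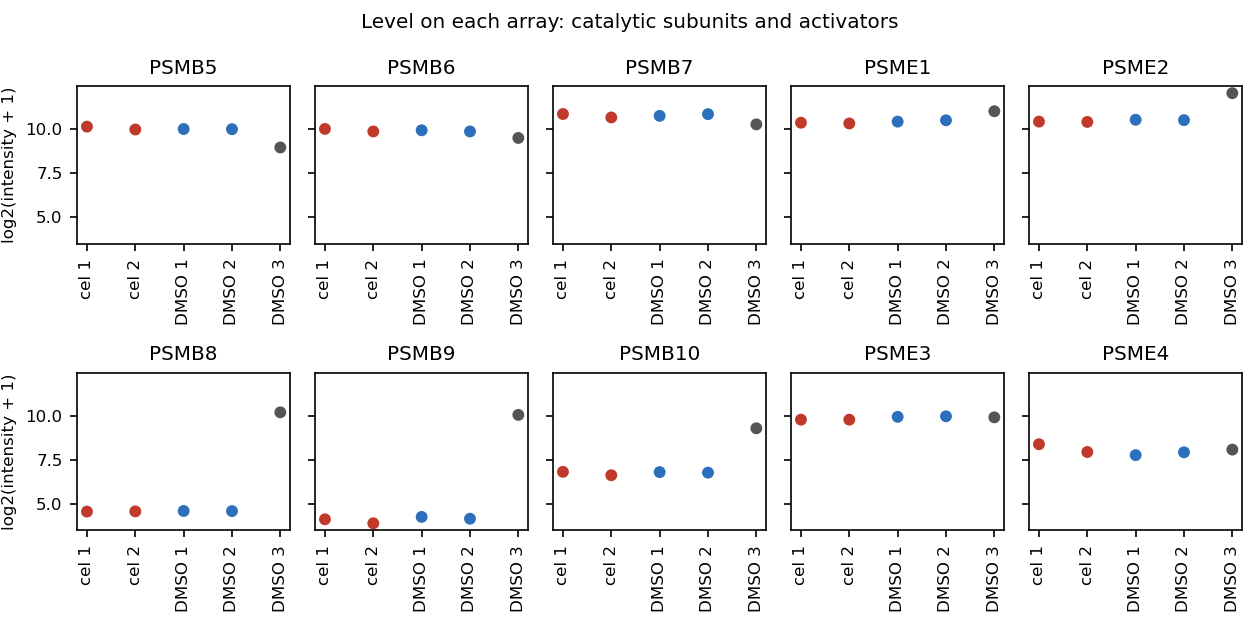
Level of the 3 catalytic beta genes, their 3 immunoproteasome counterparts and the 4 activators on each of 5 arrays, as log2(intensity + 1), with red for celastrol, blue for DMSO replicates 1 and 2 and grey for DMSO replicate 3. PSMB8, PSMB9 and PSMB10 stand at 9.28 to 10.18 on DMSO replicate 3 and at most 6.82 elsewhere, while PSMB5, PSMB6 and PSMB7 are lowest there.

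**Figure D5:**
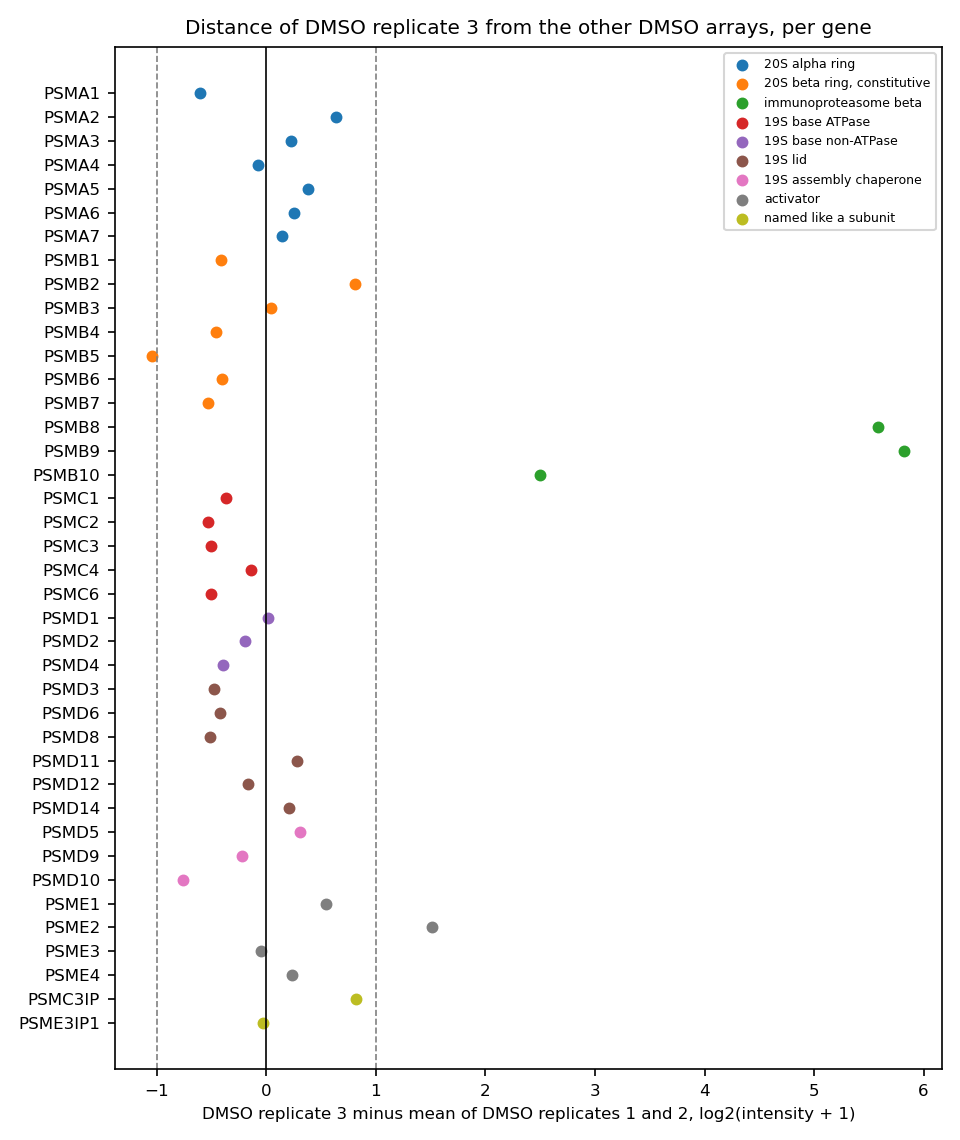
DMSO replicate 3 minus the mean of DMSO replicates 1 and 2 in log2(intensity + 1) (horizontal axis) for each of the 40 genes, coloured by role, with dashed lines at 2-fold either way. The 3 immunoproteasome genes and PSME2 lie right of the upper line, and PSMB5 lies just left of the lower line.

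Interferon response genes and leukocyte markers moved with this difference. All 9 measured interferon response genes were over 2-fold higher on DMSO replicate 3, with a list median of 9.26 against 4.53 to 4.97 on the LNCaP arrays, and TAP1, a peptide transporter subunit, stood at 9.52 against 6.90 to 6.94. The leukocyte markers are given above, of which CD3E and CD2 were not raised, at 4.25 and 4.89. Their part in the difference of the immunoproteasome genes was not tested. In the RefSeq gene table (GRCh38.p14), TAP1 and the antisense gene PSMB8-AS1 are the genes between PSMB8 and PSMB9 on chromosome 6.

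The catalytic genes and their counterparts can be set beside their start sites. RefSeq promoter windows (GRCh38.p14), from 250 bases before to 50 after a start, were matched by symbol to 35 of 40 members, with 43 windows. The core of the gamma-activated site, bound by STAT factors after interferon gamma and searched as TTCNNNGAA on either strand, was found in the windows of 7 members, PSMA2, PSMB5, PSMB8, PSMC4, PSMD2, PSMD3 and PSME3. That is 16.3% of the member windows and 7.66% of all 35116 windows. The stretches from 80 bases before to 20 after the start are shown because PSMB8 and its constitutive counterpart PSMB5 both hold the letters while they lay on opposite sides on DMSO replicate 3, and PSMB9, which was high there, has no match. Capitals mark the match, and each stretch reads 5′ to 3′ along the gene.
PSMB8, chr6:32844028-32844127, minus strand: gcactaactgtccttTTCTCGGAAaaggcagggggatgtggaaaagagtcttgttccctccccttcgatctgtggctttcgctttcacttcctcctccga
PSMB5, chr14:23034881-23034980, minus strand: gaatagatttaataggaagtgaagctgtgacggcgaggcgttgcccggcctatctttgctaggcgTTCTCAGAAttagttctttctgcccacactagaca
PSMB9, chr6:32854112-32854211, plus strand: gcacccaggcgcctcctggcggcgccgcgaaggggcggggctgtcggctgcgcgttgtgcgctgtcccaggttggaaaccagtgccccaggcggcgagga

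The match began at base -65 from the start in PSMB8 and at -15 in PSMB5, where -1 is the base before the start. In the same window PSMB5 held a further match at -158, while another PSMB5 window, of a different start, held none. PSMB9, PSMB10, PSME1 and PSME2 held none in these windows. A match is a description of letters and not of binding.

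An element for stress factors was searched in the same windows. The antioxidant response element core, bound by NFE2L1 and NFE2L2 and searched as TGACNNNGC on either strand, was found in 12 of the 35 members, in 27.9% of member windows against 13.3% of all windows. The 12 had a median celastrol change of -0.06 and the other 23 of 0.04. PSMD12 and PSMA4 are shown because both hold the element upstream of the start while their arrays lay on opposite sides, with PSMD12 higher and PSMA4 lower with celastrol. Capitals mark the match.
PSMD12, chr17:67366704-67366772, minus strand: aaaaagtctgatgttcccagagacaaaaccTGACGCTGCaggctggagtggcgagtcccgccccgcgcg
PSMA4, chr15:78540630-78540698, plus strand: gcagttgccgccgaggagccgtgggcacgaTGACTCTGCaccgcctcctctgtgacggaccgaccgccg

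The match began at base -165 in PSMD12 and at -126 in PSMA4. Other motifs were searched on either strand too. CCAAT, the CCAAT box, was found in 46.5% of member windows against 34.6% of all windows, and CCGGAAGT, the ETS core, in 18.6% against 4.14%. The 8 members with the ETS core had a median celastrol change of 0.09 and the other 27 of 0.00. For the CCAAT box the medians were 0.02 in 18 members and 0.01 in the other 17. For the gamma-activated site core they were -0.002 in 7 members and 0.02 in the other 28. Differences between the medians with and without a motif were not tested. Overlaps between these motifs were not removed.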

How the data were processed

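Total RNA extracted with Trizol was turned into biotinylated cRNA by the Affymetrix procedure, per the labels' protocols, and hybridised to 5 arrays. The deposited intensities, 1 for every probe set on every array, are linear values summarised by RMA, per the submitters' processing notes (no version is given). Total intensity ranged from 4939397 to 5348496 per array. Groups follow titles and treatment protocols, since the description of each DMSO sample speaks of celastrol.

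Values were taken as log2(value + 1). Of 22215 probe sets, 19724 name 1 gene, giving 12165 genes. Celastrol replicates 1 and 2 were compared with DMSO replicates 1 and 2 by limma 3.58.1 in R 4.3.3 (lmFit and eBayes, two-sided), with p-values adjusted by Benjamini-Hochberg over the whole table and called under 0.05. This fit has 2 residual degrees of freedom, and 7 members had tied values within a group. The script was tested on simulated data. Members and lists were chosen with earlier results of these data known. The members given in full are the catalytic and immunoproteasome beta genes, the activators and, in every other class, up to 2 with the largest change among those without overlap. The labels state no pairing of the arrays, and the difference between replicates correlated at r = -0.0197 across probe sets between celastrol and DMSO. That shows no shared replicate effect, but cannot show whether arrays of the same number were handled together. Promoter motifs were chosen after the values were seen, and longer motifs for interferon, heat shock and kappaB factors, also searched at first, are not reported here. Alternatives covered filters, normalization, pseudocount, variance model, choice of probe set, a replicate block and each array left out.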

Additional observations from a re-analysis of the deposited data

Results flagged for a closer look

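Signals above the LNCaP controls were seen on DMSO replicate 3, which the comparison of celastrol with DMSO leaves out. On that array PSMB9 stood 5.82, PSMB8 5.59, PSMB10 2.50 and PSME2 1.51 above the mean of DMSO replicates 1 and 2 on the log2 scale. PSMB9 and PSMB8 lay near the floor on those replicates, and with log2(value + 16) their differences were 4.99 and 4.91. These 4 stayed over 2-fold higher under quantile normalization, median centring, log2(value + 16), the mean of all probe sets and against either other DMSO array alone. The interferon response and leukocyte markers that were high on the same array are given in the text above, and their part was not tested.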

How the results depend on the processing

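Under all 14 alternatives 0 of 40 members passed the limma test, with a smallest adjusted p of 0.0959, while the count over all genes ran from 0 to 124, against 2 in the fit reported. With DMSO replicate 3 included, 0 of 12165 genes passed, and PSMB7 and PSMB1 turned sign, to 0.134 and 0.0765. The number of members whose interval lay within 1.5-fold then dropped to 17 from 39, or 42.5% against 54.2% of all genes. With 1 array left out, non-overlapping members numbered 24 to 32, 60% to 80%, against 19, and the share over all genes rose as well, to between 59.0% and 59.8%. Members within 1.5-fold then numbered 29 to 33. The median change of the members then ran from -0.006 to 0.03. The change of PSMB5 ran from -0.0218 to 0.138 and that of PSMB6 from -0.0336 to 0.109, turning without celastrol replicate 1. PSMB7 ran from -0.140 to 0.0543, turning without celastrol replicate 2 or DMSO replicate 2, and PSMB10 from -0.162 to 0.0309, turning without celastrol replicate 2. The other 15 of 20 named members kept their sign under every alternative run. The replicate block left the count of called members at 0 and that of non-overlapping members at 19, with a smallest limma adjusted p of 0.39. The labels state no pairing by replicate number. On DMSO replicate 3, quantile normalization of the 5 arrays left 4 of 5 members over 2-fold apart, PSMB5 coming to -0.90; the alternatives for that array were chosen after seeing the data. Values near the floor, as for PSMB8 and PSMB9 on the LNCaP arrays, limit how far a fall could be seen.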
